A study of Zea mays with 27 samples.

Results

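Calmodulin CaM1 (LOC542420) and the protein phosphatases PP1 (LOC542269) and PP2C (LOC542176) were followed in adult maize leaves on 27 dual-colour cDNA arrays. Their spots were taken by gene symbol from the probe annotation of the array. This gave 45 spots in 15 cDNAs, of which 9 were annotated to CaM1, 4 to PP1 and 2 to PP2C, among 811 annotated cDNAs for 213 genes. The array carried 5400 cDNAs in all, each spotted 3 times in a row, and a cDNA is named here by its first spot.

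Calmodulin is a small protein that binds calcium and then attaches to other proteins, whose activity it alters. It is the general calcium sensor of plant cells and acts on protein kinases, ion pumps and transcription factors. PP1 is a serine and threonine phosphatase whose catalytic subunit is steered by partner subunits, and PP2C enzymes are metal-dependent phosphatases of a separate family. In Arabidopsis, some PP2C enzymes hold back the response to the hormone abscisic acid. In Arabidopsis cell cultures, calmodulin antagonists are known to reduce the induction of a flavonoid enzyme gene by UV-B.

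Plants of 4 genotypes grew under plastic filters labelled LE, PE or CA, or in the greenhouse. The labels name the genotypes b,pl, B,Pl (also written B,PL), bz2 and mutator. As background, b and pl are regulators of anthocyanin pigment synthesis, bz2 is a gene needed for anthocyanin to be stored in the vacuole, and Mutator is a family of maize transposons. In b,pl there were 2 arrays of LE, 2 of PE, 2 of plants 1 day after removal of the PE filter, 2 of greenhouse plants after 8 h of supplementary UV-B and 1 of greenhouse plants without UV-B. In B,Pl there were 1 of LE, 3 of PE, 2 after PE removal, 1 of greenhouse UV-B and 2 of CA. In bz2 there were 2 of LE and 1 each of PE, greenhouse UV-B and CA, and mutator had 1 array of each of these 4. The other channel held RNA of b,pl plants under CA on 20 arrays, and RNA of the same genotype under CA on the other 7, which were the LE arrays of B,Pl, bz2 and mutator, the PE arrays of bz2 and mutator, and 1 PE array of B,Pl. Nothing in the labels tells separate plants from repeat hybridisations within a group, and the p-values cover no more than the array-to-array spread, which may be technical.

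Each value is a log2 ratio of the channels, centred on the median of its array and signed by the dye of the listed group. Correlations and SDs over arrays instead use the centred values as deposited, without the dye sign. The channel used as numerator is not given in the sources used here, so a positive value means more RNA of the first-named group if the files hold Cy5 over Cy3, and less if they hold Cy3 over Cy5. Values are therefore called positive or negative, and not higher or lower. Read by dye, the fit left a median residual variance of 0.168, against 0.216 when every array was read as listed group over other channel. Turning B,Pl PE replicate 3 alone left 0.152, turning b,pl PE replicate 2 alone left 0.158, and turning replicate 1 of the PE-removed b,pl plants alone left 0.161, so for each of these 3 arrays the titles' dyes left the larger variance. Turning b,pl UV-B replicate 2 alone left 0.205. With B,Pl PE replicate 2 turned it was 0.166, with b,pl PE removed replicate 2 0.167, and with bz2 CA or mutator CA 0.168. Replicates 2 and 3 of B,Pl PE, a dye swap by their titles, had a Spearman correlation of 0.61 as deposited, with opposite signs for 24.8% of the cDNAs, so signing by dye sets them against each other. The swaps of B,Pl CA, b,pl PE and b,pl PE removed stood at 0.04, 0.10 and 0.14, with 50.0%, 45.8% and 44.2% opposite, so these did not reverse over all cDNAs either. The remaining swaps had correlations from −0.55 to −0.22. Neither B,Pl CA array was turned in the alternatives, so B,Pl differences from CA were not checked in that way. Replicate numbers are names given here and pair no arrays. Arrays held 14715 to 16122 of 16200 spots. The arrays B,Pl CA replicate 2 and b,pl PE replicate 2 stood apart from the rest, with SDs over all cDNAs of 1.22 and 1.26, while the other 25 lay between 0.27 and 0.817. The arrays b,pl UV-B replicate 2 and b,pl PE removed replicate 1, of the same dye and the same other channel, correlated at −0.40 over all cDNAs, so their direction relative to each other is unsettled and results resting on them are also given with the sign turned. On 4 arrays, namely bz2 CA, mutator CA, replicate 2 of B,Pl under PE and replicate 2 of b,pl after PE removal, the dye of channel 2 differs between title and source name, and the title was followed. Ratios hold no levels, so the leaf identity could not be checked by marker levels. In leaf RNA, fewer cells of a type and less RNA per cell cannot be told apart.

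The cDNAs of PP2C varied together, those of PP1 mostly so, and those of CaM1 more closely once the 2 widest arrays were set aside. Over the 27 arrays the PP2C cDNAs at spots 958 and 1261 correlated at 0.83, and at 0.84 over 25 arrays. The 6 pairs of PP1 cDNAs had a median correlation of 0.47 over 27 and over 25 arrays, and the cDNA at spot 8377 followed the other 3 least. For CaM1 the 36 pairs had a median of 0.38 with a range from −0.64 to 0.90 over 27 arrays, and a median of 0.63 with a range from 0.08 to 0.95 over 25, where 36 of 36 were above 0. For comparison, the median over the 110 annotated genes with at least 2 cDNAs was 0.22 over 27 and 0.27 over 25 arrays. These correlations use centred values without the dye sign, describe arrays that share their other-channel RNA and carry no p-value. Pairs across genes stayed near 0, with medians over 27 arrays of 0.07 for CaM1 with PP1, −0.15 for CaM1 with PP2C and −0.10 for PP1 with PP2C.

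**Figure D1:**
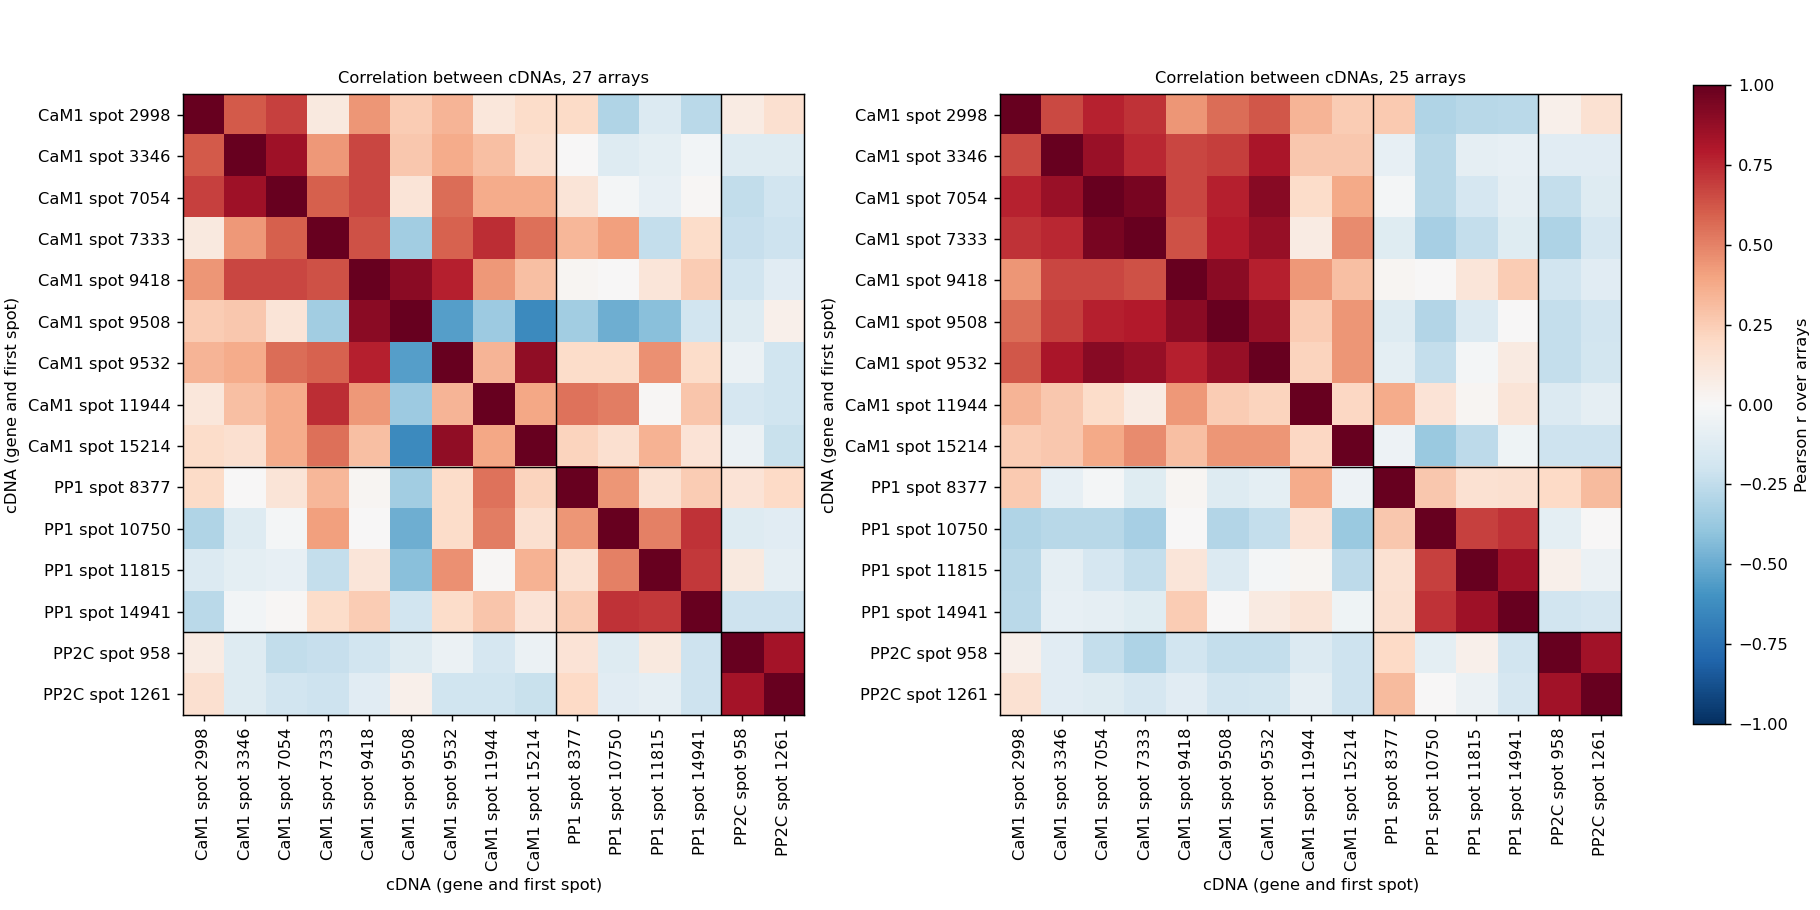
Pearson correlation between the 15 cDNAs over all 27 arrays (left) and over 25 arrays without B,Pl CA replicate 2 and b,pl PE replicate 2 (right), coloured from −1 to 1, with lines between the genes. Values are centred and as deposited, without the dye sign. The CaM1 block has a median of 0.38 on the left and 0.63 on the right, and the pair of PP2C cDNAs stays at 0.83 and 0.84.

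Spots of the same cDNA agreed closely for most values. The median SD between spots was 0.034 for CaM1, 0.034 for PP1 and 0.052 for PP2C, against an SD over arrays of 0.241 to 1.62 for the 15 cDNAs. A value resting on fewer than 2 spots, or on spots with an SD over 0.5, occurred in 15 of 240 CaM1 values, 1 of 108 PP1 values and 2 of 54 PP2C values, and in 5.65% of the values of all cDNAs. Of the 15 for CaM1, 11 fell on the cDNAs at spots 11944 and 15214, which also correlated least with the other CaM1 cDNAs over 25 arrays. Both PP2C values of this kind lay on b,pl LE replicate 2. Whether a cDNA also binds RNA of close relatives, such as other calmodulin genes, was not tested.

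No cDNA of the 3 genes passed the adjusted threshold of 0.05 in any of the 22 comparisons. In limma, 0 of 330 tests passed, and 35 of them (10.6%) had an unadjusted p under 0.05, against 7.15% over all cDNAs and the same comparisons. The linear model without shrinkage of the variances also called 0. Few cDNAs of the whole array passed in the same comparisons. For LE minus CA, 0% passed in b,pl, 0.242% in B,Pl, 0.556% in bz2, 0.0557% in mutator and 1.29% in the mean of the 4 genotypes. In the PE and PE-removed comparisons, in greenhouse UV-B and no UV-B against CA or each other within b,pl, and between genotypes under CA, 0% passed. At greenhouse UV-B, 0.0186% passed for B,Pl minus b,pl, 0.0371% for bz2 minus b,pl and 0% for mutator minus b,pl, and 0.0187% passed for UV-B minus CA in the mean of the 4 genotypes, which was added once the values were known. The F tests of a genotype difference called 0 of 15 cDNAs for LE, where 0.242% of all passed and 0 of the 15 had an unadjusted p under 0.05, and 0 of 15 for PE, where 0% passed and 1 of the 15 had such a p. The differences below are therefore given as sizes with their errors.

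**Figure D2:**
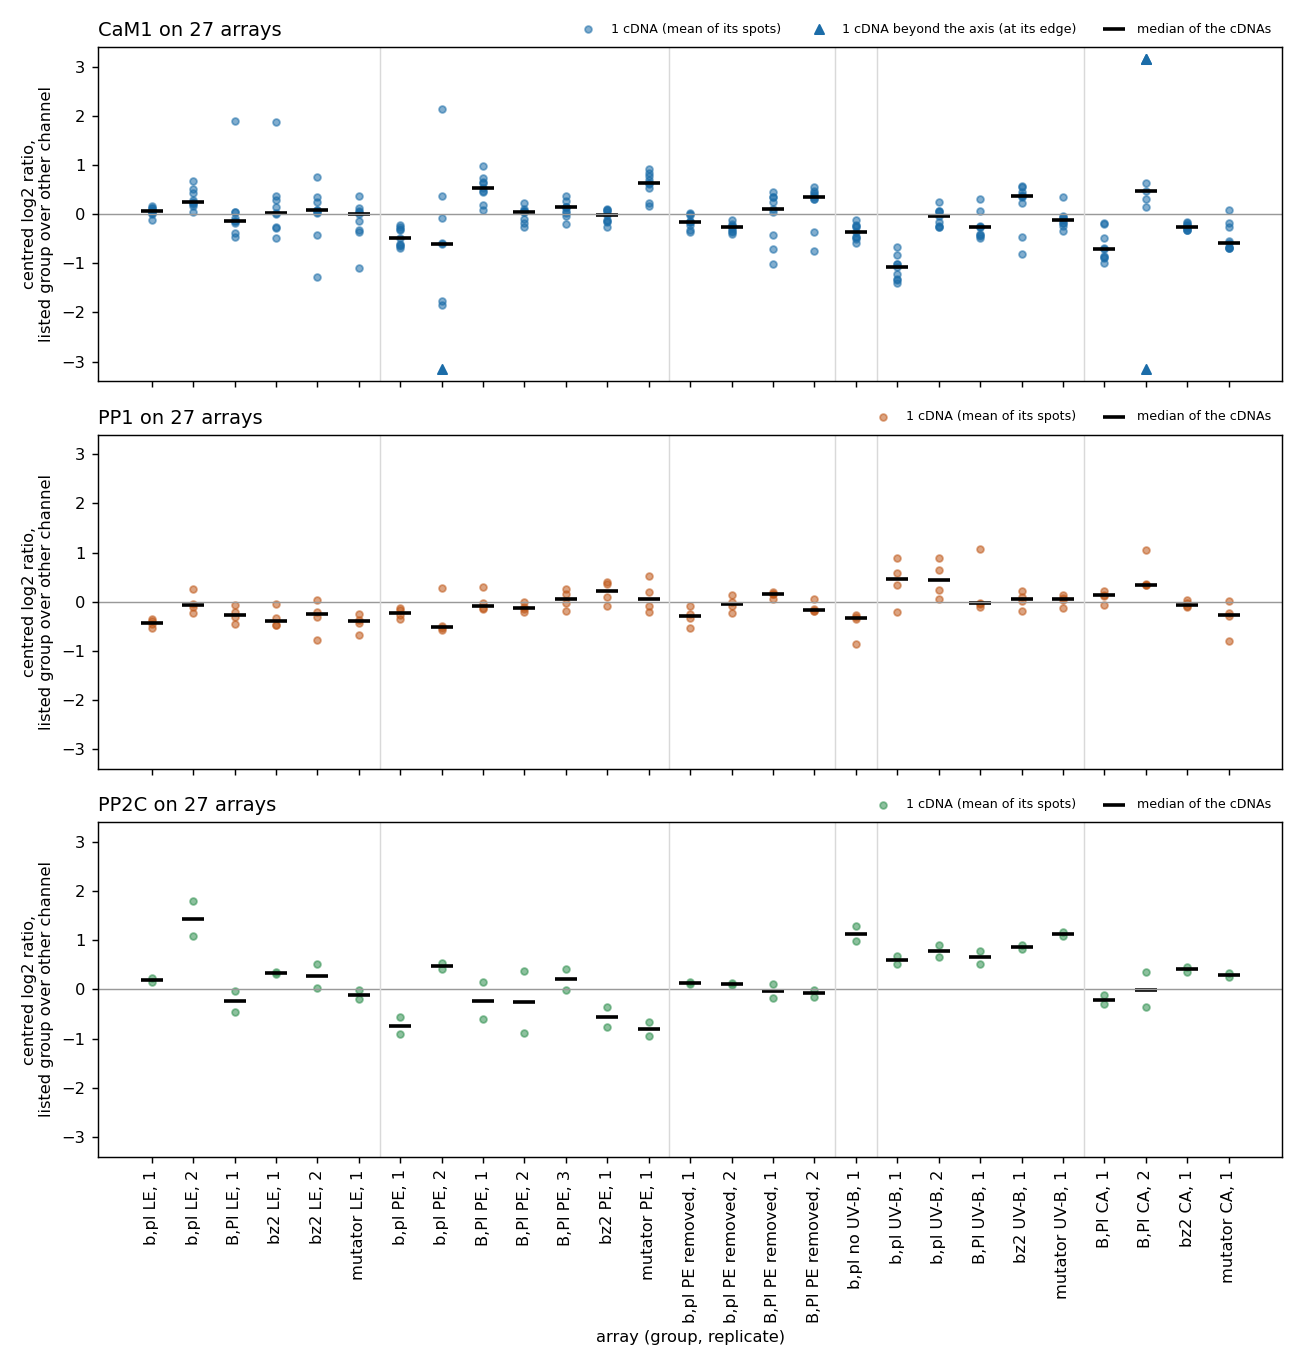
Centred log2 ratio of each cDNA (dots) and the median of the cDNAs of a gene (black bars) on the 27 arrays, signed by dye, for CaM1, PP1 and PP2C, with vertical lines between LE, PE, PE removed, no UV-B, UV-B and CA. Triangles at the edge are values beyond the axis, which were −6.58 on b,pl PE replicate 2 and −3.80, 4.51 and 7.15 on B,Pl CA replicate 2. PP2C sits above 0 on the 6 greenhouse arrays, and the PP1 medians sit below 0 on the 6 LE arrays.

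CaM1 moved as a block on single arrays, but repeat arrays of a group often differed. In b,pl greenhouse plants after UV-B, the 9 CaM1 cDNAs lay between −1.40 and −0.66 on replicate 1, a mean of −1.10 that 2.5% of all cDNAs of that array fell under. On replicate 2, with the dyes swapped, the same cDNAs lay between −0.26 and 0.24 with a mean of −0.06. The first array thus showed a clear shift of the gene and its dye swap showed none of that size. The fitted UV-B minus CA difference in b,pl had a gene mean of −0.58 (SE 0.40, limma adjusted p = 0.626), with 9 of 9 cDNAs negative, and the smallest p was at spot 7054 (−0.74, SE 0.28, adjusted p = 0.286). Without replicate 1 the median over the CaM1 cDNAs was −0.08, without replicate 2 it was −1.05, and with the sign of replicate 2 turned it was −0.54, against −0.66 with both arrays.

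On the other greenhouse arrays CaM1 means stayed closer to 0 than on b,pl UV-B replicate 1. Without UV-B, in b,pl, its 9 cDNAs lay between −0.59 and −0.12 with a mean of −0.36, and the fitted no UV-B minus CA difference was −0.24 (SE 0.58). After UV-B the gene mean was −0.24 in B,Pl, 0.18 in bz2 and −0.10 in mutator, each on 1 array. The fitted UV-B minus no UV-B difference in b,pl was −0.34 (SE 0.70), well within its error. Against b,pl at UV-B, the fitted gene mean was 0.46 (SE 0.70) in B,Pl, 0.88 (SE 0.70) in bz2 and 0.60 (SE 0.70) in mutator, and all 3 use the 2 unlike b,pl UV-B arrays. Without b,pl UV-B replicate 1, the CaM1 median for bz2 minus b,pl was 0.37, and without replicate 2 it was 1.39. With the sign of b,pl UV-B replicate 2 turned, the CaM1 medians for B,Pl, bz2 and mutator minus b,pl were 0.44, 0.98 and 0.45, against 0.38, 1.08 and 0.41. Over the 6 greenhouse arrays, 1 of 9 CaM1 cDNAs, at spot 15214, was negative on all, which 6.91% of all cDNAs were.

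Under the PE filter the CaM1 means had opposite signs in different genotypes. In b,pl they were −0.46 on replicate 1, with 9 of 9 cDNAs negative, and −1.12 on replicate 2, where 8 cDNAs had a value and these ran from −6.58 to 2.15. The extreme value, at spot 7333, rested on 1 spot. In mutator the 9 cDNAs lay between 0.18 and 0.91 with a mean of 0.60, and in B,Pl set against its own CA they lay between 0.08 and 0.98 with a mean of 0.52. The bz2 array gave a mean of −0.04, and the other 2 B,Pl arrays, set against b,pl CA, gave CaM1 means of 0.00 and 0.10. Fitted PE minus CA differences were −0.79 (SE 0.40) in b,pl, 0.17 (SE 0.40) in B,Pl, 0.08 (SE 0.58) in bz2 and 0.72 (SE 0.58) in mutator. Turning the wide replicate 2 gave a CaM1 median in b,pl of 0.14 in place of −0.45. The CaM1 median in B,Pl, 0.46, kept its sign when B,Pl PE replicate 2 or 3 was turned. In the b,pl comparison the cDNA at spot 11944 had −1.19 (SE 0.29, adjusted p = 0.391) and the cDNA at spot 7333 had −3.53 (SE 0.99, adjusted p = 0.391). Left with b,pl PE replicate 2 alone, these 2 cDNAs stood at −1.93 and −6.71, each on 1 spot of that wide array. Over all alternatives their adjusted p reached 1. Without the 2 widest arrays the median of the CaM1 cDNAs in this comparison was −0.39, with 9 of 9 negative. A single sign on all 5 PE arrays set against their own CA was found for 0 of 9 cDNAs, while 7.69% of all cDNAs were positive and 7.65% negative there.

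After removal of the PE filter the CaM1 array means were small. In b,pl the means were −0.15 on replicate 1 and −0.28 on replicate 2, where 9 of 9 cDNAs were negative, and the fitted difference was −0.22 (SE 0.40). With the sign of replicate 1 turned, the CaM1 median was −0.06 in place of −0.22, and with that of replicate 2, an array of conflicting dye labels, it was 0.06. In B,Pl, set against b,pl CA, the means were −0.07 and 0.19, and the fitted PE removed minus CA difference within B,Pl was −0.05 (SE 0.53), while the median of its cDNAs was 0.57, so mean and median differed in sign. The fitted cDNA differences ran from −2.81 at spot 15214 to 1.68 at spot 9508. On the wide B,Pl CA replicate 2, which enters this fit, these cDNAs held 7.15 and −3.80.

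For the LE filter CaM1 had medians over its cDNAs of 0.07 and 0.24 in b,pl, −0.14 in B,Pl, 0.03 and 0.08 in bz2 and 0.01 in mutator. Of 54 values on these arrays 37 were positive. No CaM1 cDNA kept a sign on all 6 LE arrays, which 11% of all cDNAs did as positive and 10.2% as negative. Fitted LE minus CA gene means lay between −0.02 and 0.19 in the 4 genotypes, with SEs of 0.40 to 0.58, and their mean was 0.11 (SE 0.25). No genotype thus showed an LE difference of CaM1 beyond its error.

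Between genotypes under CA, the 2 dye-swapped B,Pl arrays gave CaM1 opposite means. Replicate 1 had a mean of −0.65, with the 9 cDNAs between −0.999 and −0.18. Replicate 2 had a mean of 1.35 over the 7 cDNAs with a value, which ran from −3.80 to 7.15, with a median of 0.48. The value of 7.15 rested on 1 spot, and the spots behind −3.80 and 4.51 had SDs of 0.773 and 0.56. The bz2 array had 9 of 9 cDNAs negative with a mean of −0.26, and the mutator array had 8 of 9 negative with a mean of −0.47. Fitted differences from b,pl were 0.11 (SE 0.35) in B,Pl, −0.13 (SE 0.58) in bz2 and −0.35 (SE 0.58) in mutator. For B,Pl the median of the cDNAs was −0.24, of opposite sign to the mean, and −0.60 without the 2 widest arrays. With the signs of the bz2 and mutator arrays turned, whose dye labels conflict, the CaM1 medians were 0.38 and 0.73 in place of −0.14 and −0.36.

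PP1 had negative means on the 6 LE arrays of all 4 genotypes. They were −0.44 and −0.03 in b,pl, −0.26 in B,Pl, −0.33 and −0.31 in bz2 and −0.43 in mutator, each set against CA of the same genotype. Of 24 cDNA values on these arrays 22 were negative, and both positive values were at spot 8377. The cDNAs at spots 10750, 11815 and 14941 were negative on all 6, which 10.2% of all cDNAs were. These 4 cDNAs stand for a single gene and share each array's RNA, so they are not replicates of each other.

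The cDNA at spot 14941 had the most negative fitted PP1 difference under LE in the mean of the genotypes and in b,pl, bz2 and mutator, while in B,Pl spot 10750 had −0.43 against −0.31 at spot 14941. It stood at −0.54 and −0.22 in b,pl, −0.31 in B,Pl, −0.48 and −0.77 in bz2 and −0.68 in mutator. The fitted mean of LE minus CA over the 4 genotypes was −0.50 (SE 0.13, unadjusted p = 0.00255, limma adjusted p = 0.0859), a value that 6.2% of all cDNAs fell under. Over the alternatives its adjusted p ran from 0.0525 to 1, and leaving out in turn the 17 arrays with a partner in their group kept it between −0.56 and −0.45, a check that the single B,Pl and mutator LE arrays did not allow. Read as group over other channel, it was −0.23, and its bz2 difference was 0.145 in place of −0.63. The other PP1 cDNAs stood at −0.34 (SE 0.11), −0.20 (SE 0.15) and −0.12 (SE 0.12), and the gene mean was −0.29 (SE 0.11, adjusted p = 0.239). Without centring of the arrays, the PP1 median in b,pl changed to 0.23 while the median of all cDNAs in that comparison moved to 0.48.

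In the greenhouse PP1 had opposite signs with and without UV-B in b,pl. After UV-B the gene means were 0.40 on replicate 1 and 0.45 on its dye swap, and without UV-B the mean was −0.45. At spot 14941 the values were 0.88 and 0.88 after UV-B, against −0.86 without. The least apart was spot 8377, with −0.21 and 0.24 after UV-B against −0.31 without. The fitted UV-B minus no UV-B difference was 1.74 at spot 14941 (SE 0.35, unadjusted p = 0.000521, adjusted p = 0.712), beyond 99.1% of all cDNAs, and 0.83 for the gene mean (SE 0.30). It rests on 1 array without UV-B, and 0% of all cDNAs passed in this comparison. With the sign of b,pl UV-B replicate 2 turned, the PP1 median of UV-B minus no UV-B was 0.36 in place of 0.66, and that of UV-B minus CA was −0.02 in place of 0.40.

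The positive UV-B values of PP1 in b,pl were not as large in the other genotypes. The gene means after UV-B were 0.22 in B,Pl, 0.04 in bz2 and 0.03 in mutator. The B,Pl mean held 1.06 at spot 8377, whose spots had an SD of 0.658, and its median was −0.03. At spot 14941 the fitted differences from b,pl at UV-B were −0.92 in B,Pl (SE 0.35, adjusted p = 0.838), −0.79 in bz2 (SE 0.35, adjusted p = 0.999) and −0.998 in mutator (SE 0.35, adjusted p = 0.815). These share the b,pl UV-B arrays and did not pass the threshold. With the sign of b,pl UV-B replicate 2 turned, the PP1 medians were −0.11 in B,Pl, 0.04 in bz2 and 0.06 in mutator, against −0.42, −0.23 and −0.24. Averaged over the 4 genotypes, UV-B minus CA was 0.23 (SE 0.15) for the PP1 gene mean.

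Under PE, PP1 had no common sign. Its means were −0.23 and −0.33 in b,pl, 0.00 in B,Pl against its own CA, 0.19 in bz2 and 0.11 in mutator, and the fitted mean over genotypes was −0.01 (SE 0.11). The other 2 B,Pl arrays, against b,pl CA, had PP1 means of −0.11 and 0.05. The fitted PP1 median in b,pl was −0.34, and 0.13 once the wide replicate 2 was turned. The cDNA at spot 8377 was negative on all 5 PE arrays set against their own CA, which 7.65% of all cDNAs were. One day after PE removal the b,pl arrays had −0.30 and −0.04, and the B,Pl arrays had 0.15 and −0.11 against b,pl CA. The fitted PE removed minus CA difference was −0.17 (SE 0.17) in b,pl and −0.20 (SE 0.22) in B,Pl, and turning the sign of b,pl PE removed replicate 1 changed the b,pl median from −0.17 to 0.12. Under CA, PP1 stood at 0.11 and 0.52 in B,Pl, −0.05 in bz2 and −0.33 in mutator, all against b,pl, and the fitted differences were 0.22 (SE 0.15), 0.00 (SE 0.25) and −0.28 (SE 0.25). Turning the sign of the mutator array gave it a PP1 median of 0.32 in place of −0.21.

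PP2C was positive on every greenhouse array. Without UV-B, in b,pl, its 2 cDNAs stood at 1.29 (spot 958) and 0.98 (spot 1261). After UV-B the cDNA at spot 958 stood at 0.68 and 0.90 in b,pl, 0.53 in B,Pl, 0.91 in bz2 and 1.09 in mutator. The cDNA at spot 1261 stood at 0.53 and 0.66 in b,pl, 0.79 in B,Pl, 0.81 in bz2 and 1.17 in mutator. Both cDNAs were positive on all 6 arrays, which 8.21% of all cDNAs were, and the b,pl values had opposite deposited signs on the 2 arrays of the dye swap. Gene means exceeded between 84.8% and 98% of all cDNAs of the same array.

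All 6 greenhouse arrays were set against b,pl CA. In B,Pl, bz2 and mutator, which had no greenhouse array without UV-B, growth in the greenhouse and the UV-B supplement cannot be told apart. On their arrays the genotype differs from that channel as well. Relative to b,pl CA, the fitted PP2C gene mean was 0.62 in bz2 CA and 1.07 in bz2 UV-B. It was 0.50 and 1.34 in mutator, and −0.08 and 0.87 in B,Pl. The fitted no UV-B minus CA difference in b,pl was 1.61 at spot 958 (SE 0.46, adjusted p = 0.411) and 1.08 at spot 1261 (SE 0.36, adjusted p = 0.457), on 1 array. UV-B minus CA in b,pl was 0.79 (SE 0.32, adjusted p = 0.322) and 0.59 (SE 0.24, adjusted p = 0.332). Within the greenhouse, UV-B minus no UV-B was −0.82 (SE 0.56) and −0.49 (SE 0.43), so the value without UV-B was not under that with it. In the mean of the 4 genotypes, UV-B minus CA was 0.71 (SE 0.28, adjusted p = 0.579) and 0.75 (SE 0.21, unadjusted p = 0.00463, adjusted p = 0.267). That mean kept its sign under all 35 alternatives for the PP2C median, between 0.42 and 0.94. With the sign of b,pl UV-B replicate 2 turned, the PP2C median of UV-B minus CA in b,pl was −0.09 in place of 0.69, that of UV-B minus no UV-B was −1.34 in place of −0.65, and that of the mean of the 4 genotypes was 0.51 in place of 0.73.

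Under PE, PP2C was negative on 4 of the 5 arrays set against CA of the same genotype. The means were −0.73 and 0.47 in b,pl, −0.23 in B,Pl, −0.56 in bz2 and −0.80 in mutator. The b,pl arrays, a dye swap with the same deposited sign, thus gave opposite values, and the positive array was the widest of the 27. That B,Pl array held −0.60 and 0.14 for the 2 cDNAs, and the other 2 B,Pl arrays, against b,pl CA, had PP2C means of −0.25 and 0.21, although neither cDNA changed its deposited sign between them. Fitted PE minus CA differences were −0.13 (SE 0.25) in b,pl, 0.03 (SE 0.25) in B,Pl, −0.35 (SE 0.37) in bz2 and −0.59 (SE 0.37) in mutator, with −0.26 (SE 0.16) in the mean of the 4. Without the 2 widest arrays, the PP2C median in b,pl was −0.57, and once replicate 2 was turned it was −0.60. In B,Pl the PP2C median of 0.03 changed sign once B,Pl PE replicate 3 was turned. It was 0.15 once B,Pl PE replicate 2 was turned. Neither PP2C cDNA was negative on all 5 arrays, which 7.65% of all cDNAs were.

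Under LE, the PP2C value in b,pl rested on disagreeing spots. Replicate 1 had 0.14 and 0.24, and replicate 2 had 1.803 and 1.08. The spots behind 1.803 read 4.21 and −0.61, and those behind 1.08 read −0.30, 2.68 and 0.85. The fitted LE minus CA difference in b,pl was 0.97 (SE 0.32, adjusted p = 0.638) at spot 958 and 0.66 (SE 0.24, adjusted p = 0.676) at spot 1261, and the PP2C median of 0.82 became 0.34 once values on disagreeing spots were left out and −0.62 when every array was read as listed group over other channel. In bz2 the means were 0.33 and 0.28, against −0.24 in B,Pl and −0.11 in mutator. The fitted mean over genotypes was 0.30 (SE 0.16), against a median of 0.145 without the disagreeing spots and −0.33 with arrays read as group over other channel.

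Between genotypes under CA, PP2C was positive in bz2 and mutator and near 0 in B,Pl, all against b,pl. The bz2 array had 0.37 and 0.46, the mutator array 0.33 and 0.25, and the B,Pl arrays had means of −0.21 and 0.00. Fitted differences were 0.62 (SE 0.37) in bz2, 0.50 (SE 0.37) in mutator and −0.08 (SE 0.22) in B,Pl. The bz2 and mutator arrays are among those with conflicting dye labels, and with their signs turned the PP2C medians were −0.20 and −0.08. At greenhouse UV-B the fitted differences from b,pl were 0.18 (SE 0.44) in B,Pl, 0.38 (SE 0.44) in bz2 and 0.64 (SE 0.44) in mutator, and with the sign of b,pl UV-B replicate 2 turned the PP2C medians were 0.86, 1.06 and 1.33. After PE removal PP2C had 0.12 and 0.12 in b,pl and −0.03 and −0.08 in B,Pl, and the fitted differences from CA were 0.12 (SE 0.25) and 0.03 (SE 0.33). With the sign of b,pl PE removed replicate 1 turned, the b,pl median was 0.00.

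**Figure D3:**
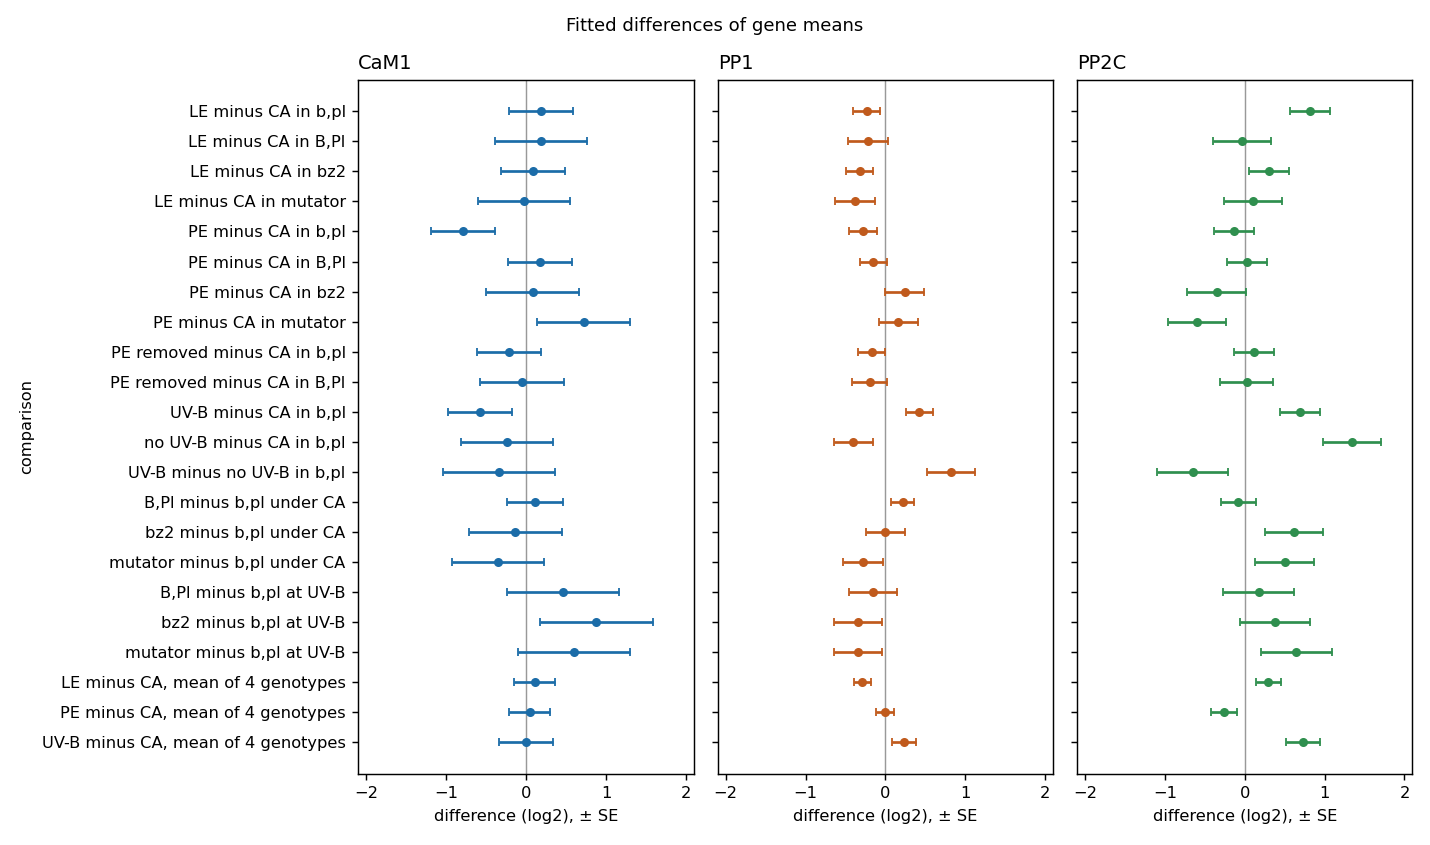
Fitted log2 difference of the gene mean (points) with its SE (bars) in the 22 comparisons for CaM1, PP1 and PP2C, on a common axis. PP2C reaches 1.34 for no UV-B minus CA in b,pl, PP1 reaches 0.83 for UV-B minus no UV-B in b,pl, and the CaM1 bars are the widest.

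For each of the 3 genes the groups were ordered by fitted gene mean relative to b,pl CA. In 0 of 18 steps between neighbours did the step exceed its SE, for CaM1, PP1 or PP2C. Sorting by the fitted values makes such steps small in advance. The order of neighbours is therefore not settled, and these steps say nothing more about the genes. CaM1 ran from −0.79 (SE 0.40) in b,pl PE to 0.37 (SE 0.84) in mutator PE. PP1 ran from −0.66 (SE 0.36) in mutator LE to 0.43 (SE 0.17) in b,pl UV-B. PP2C ran from −0.13 (SE 0.25) in b,pl PE to 1.34 (SE 0.36) in b,pl no UV-B. In the PP2C order the 5 greenhouse groups lay between 0.69 and 1.34, a range that also held b,pl LE at 0.82 and bz2 LE at 0.92, with bz2 CA at 0.62, mutator LE at 0.60 and mutator CA at 0.50 next to it. Of the groups, 7 lay over 2 SE from b,pl CA for PP2C, 1 for PP1 and 0 for CaM1, without adjustment for their number. The same count was not made for other genes, and all groups share the b,pl CA reference. The PP2C groups counted include b,pl LE, which rested on disagreeing spots.

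**Figure D4:**
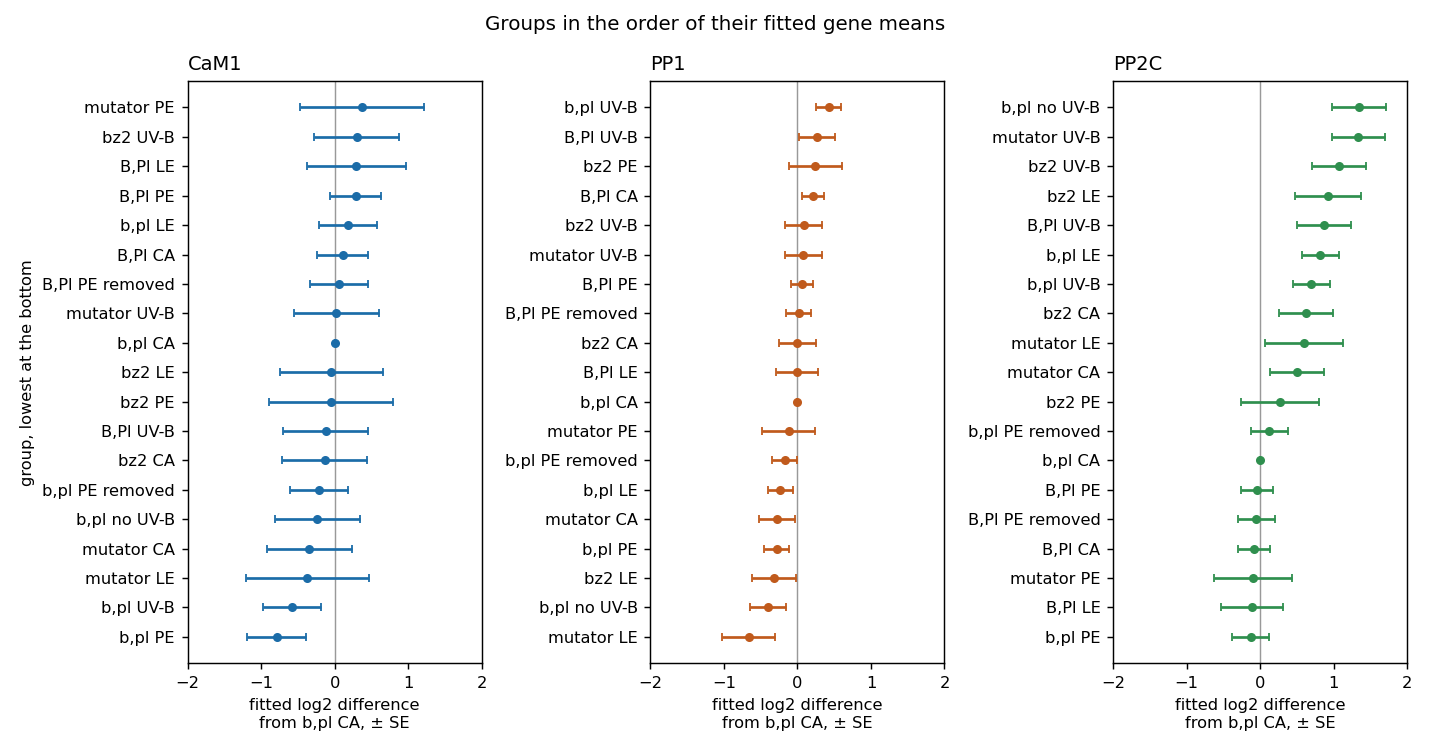
Fitted log2 difference of each group from b,pl CA (point at 0) with its SE, ordered from lowest to highest for each gene, gene means over cDNAs. The greenhouse groups of PP2C lie between 0.69 and 1.34, and the CaM1 bars of all groups but b,pl PE and b,pl UV-B reach 0.

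For the comparison with other genes, gene means were taken from centred values without the dye sign. Among the 210 other annotated genes, those with a pattern most like each gene were ranked by the correlation of gene means over the 27 arrays, as a description that arrays, dyes and a common other channel can shape. For CaM1 they were rps6-2, a ribosomal protein gene, at 0.74, LOC542766 at 0.71, the alcohol dehydrogenase adh1 at 0.71 and the calreticulin crt2, a calcium-binding chaperone, at 0.70, and the least alike were GRF8, a growth-regulating factor, at −0.66 and its partner GIF1 at −0.76. Over 25 arrays crt2 stood at 0.70 in rank 1 and rps6-2 at 0.60 in rank 5. LOC542766 stood in rank 9 and adh1 at 0.51 in rank 19. GRF8 stood at −0.31 in rank 161 and GIF1 at −0.52 in rank 194. The least alike were then tua4 at −0.69 and rpp3 at −0.74, so most of this CaM1 list depended on the 2 widest arrays. For PP1 the genes were the glyoxalase glx1 at 0.71, gpt at 0.65, the translation factor tif1 at 0.65 and the malate dehydrogenase mdh5 at 0.59, and the least alike were eIFiso-4E, a cap-binding factor, at −0.57 and SET102, a SET domain gene, at −0.58. Over 25 arrays SET102 and eIFiso-4E stood in ranks 201 and 202 for PP1, and the least alike were his1a at −0.67 and gst41 at −0.74. PP1 then had glx1 at 0.68 and gpt at 0.65 in ranks 1 and 2, mdh5 in rank 5 and tif1 in rank 7. For PP2C they were the cytosolic glyceraldehyde-3-phosphate dehydrogenase gpc3 at 0.73, the inositol phosphate synthase INO1 at 0.70, the aquaporin PIP1-1 at 0.69 and the MADS box gene zmm31 at 0.67, with the linker histone his1 at −0.63 and the glycine-rich protein gene grp1 at −0.64 at the other end. Over 25 arrays PP2C had gpc3 at 0.78, INO1 at 0.72 and PIP1-1 at 0.69 within the first 4 ranks.

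Of 12 other annotated genes of calcium and phosphorylation signalling, with 28 cDNAs, 0 cDNAs passed the limma threshold in either direction in any comparison, and 19 of 616 tests (3.08%) had an unadjusted p under 0.05, against 7.15% over all cDNAs. The list held calcium-dependent protein kinases, an annexin, a 14-3-3 protein, the calcium-binding chaperones crt2 and CNX, the phosphatase pp2c-1 and 5 further kinases. In the mean of the 4 genotypes, its median LE minus CA was 0.04 with 16 of 28 positive, and its median PE minus CA was 0.08 with 16 of 28 positive, against 0.00 and −0.02 over all cDNAs. Its median UV-B minus CA was 0.10 in the mean of the 4 genotypes with 18 of 28 positive, against 0.00 over all cDNAs, and −0.09 in b,pl with 9 of 28 positive, against −0.01 over all cDNAs. The smallest p-values were those of an annexin cDNA at spot 2101, a calcium-dependent membrane-binding protein (PE minus CA in the mean of genotypes, 0.57, SE 0.17, adjusted p = 0.369), the kinase Pti1d (PE minus CA in b,pl, 2.70, SE 0.87, adjusted p = 0.391) and a cDNA of the calcium-dependent protein kinase CDPK at spot 1240 (LE minus CA in the mean of genotypes, −0.55, SE 0.19, adjusted p = 0.183). Both PE comparisons, of the annexin cDNA and of Pti1d, include b,pl PE replicate 2, the widest array, whose titled dyes left the larger variance. Their values without that array, or with its sign turned, are not given here.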

How the data were processed

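The 27 dual-colour arrays compared RNA of adult maize leaves. Each deposited number is a log2 ratio for 1 spot, with the base read from the values: 16.3% of the antilogs of values over 2 in size were whole within 0.0001 for base 2, against 0.0751% for base e. How the authors scanned and normalised the arrays is not given in the sources used here. Array medians lay between −0.682 and 0.363.

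The 3 consecutive spots of a cDNA were averaged, then array medians were set to 0. A linear model with 18 group terms and a dye term was fitted per cDNA to the arrays that measured it, leaving 8 residual degrees of freedom, and variances were shrunk with limma 3.58.1 in R 4.3.3 (prior degrees of freedom 2.42). P-values are two-sided and adjusted by Benjamini and Hochberg over all cDNAs of a comparison, with a threshold of 0.05. On 4651 complete cDNAs, 0 differed from limma's own fit by more than 1e-08 in t. Groups of 1 array take their spread from the other groups. The b,pl CA channel has no spread of its own in this model. In simulated data of 5400 cDNAs, LE minus CA in b,pl called 31 of 100 changed by 1 and 77 of 100 changed by 2. For PE minus CA in mutator, 3 and 49 were called. Whether these rates hold for the deposited arrays, with their unsettled signs and 2 wide arrays, was not tested.

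Named genes are all cDNAs of the 3 genes, the 4 most and 2 least correlated annotated genes of each, and the 3 signalling cDNAs with the smallest p. The members and lists were chosen with earlier results of these data known, and the signalling list was matched by gene abbreviations after the files were seen. Probe symbols were matched to the gene table of Zm-B73-REFERENCE-NAM-5.0 for 208 of 213 genes, for names only. No sequences were used. Alternatives were the centring, scaling, spot averaging, sign reading, dye term, shrinkage, missing values, gene means and leaving out in turn the 17 arrays with a partner in their group. The other 10 arrays stand alone in their groups.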

Additional observations from a re-analysis of the deposited data

Results flagged for a closer look

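Among genotype pairs in which at least 1 genotype had more than 1 array, there were 9 cases in which all arrays of a genotype set against its own CA had gene means of a single sign and all arrays of the other genotype had the opposite sign. Each case compares 1 with 2 arrays, and how many such cases other genes give was not counted. The differences between genotypes were tested only by the F tests over 4 genotypes, in which every adjusted p was 1. Under LE, the CaM1 gene mean of mutator minus that of b,pl differed by −0.33 (means −0.14 and 0.18). The PP2C difference under LE was −1.06 for B,Pl minus b,pl (−0.24 and 0.82), −0.92 for mutator minus b,pl (−0.11 and 0.82), 0.54 for bz2 minus B,Pl (0.30 and −0.24) and −0.41 for mutator minus bz2 (−0.11 and 0.30). The b,pl mean of 0.82 rests on the disagreeing PP2C spots of b,pl LE replicate 2. Under PE, the CaM1 difference was 1.31 for B,Pl minus b,pl (0.52 and −0.79) and 1.39 for mutator minus b,pl (0.60 and −0.79). The PP1 difference under PE was 0.47 for bz2 minus b,pl (0.19 and −0.28) and 0.39 for mutator minus b,pl (0.11 and −0.28). The b,pl means under PE include replicate 2, the widest array, where PP1 had −0.33 and CaM1 had −1.12, with −6.58 on 1 spot. With the sign of that array turned, the 2 b,pl arrays would have opposite signs for both genes, and these PE cases would not arise. For PE the smallest unadjusted F test p was 0.0383, at the CaM1 cDNA of spot 11944. No group had the 4 arrays needed to test a single array as an outlier.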

How the results depend on the processing

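Counts of the 15 cDNAs past the threshold stayed at 0 under the 36 alternatives in every comparison, with 2 exceptions, which both left out b,pl PE replicate 1 and so kept the wide replicate 2 alone. For PE minus CA in b,pl, leaving out an array gave counts from 0 to 2, and for PE minus CA in the mean of the 4 genotypes from 0 to 1. The calls were the CaM1 cDNAs at spots 7333 and 11944, and spot 7333 for the mean (−1.25, adjusted p = 0.0038, reaching 0.947 over the alternatives). The same omission called 645 of all cDNAs in b,pl and 211 in the mean, against 0 and 0. Leaving out b,pl LE replicate 1 called 103 cDNAs for LE minus CA in b,pl, against 0. For LE minus CA in the mean of the 4 genotypes the count of 69 ran from 0 to 177. The median of a gene's cDNAs changed sign under at least 1 alternative in 41 of 66 combinations of gene and comparison, and the cause was not tested. Leaving arrays uncentred shifted the median over all cDNAs by up to 0.48 (LE minus CA in b,pl) and −0.44 (bz2 minus b,pl under CA). Leaving out the 2 widest arrays and leaving out disagreeing spots were chosen after seeing the data. With arrays as few as 1 per group, the number of arrays limits the precision. No paired analysis was possible because the labels give no replicate numbers and those used here only name arrays. Each ratio already compares the 2 RNAs of its own array.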
